A study of Drosophila melanogaster with 12 samples.

Results

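A group of 8 axonemal dynein genes of the motile cilia of chordotonal neurons was followed through antennal RNA libraries of Drosophila melanogaster. They were listed by name and function, with earlier results of these data known, and 5 of the 8 were matched to the 15682 genes of the count tables. These were Dhc93AB, Dhc62B, Dhc36C and Dhc98D, which encode dynein heavy chains, and tilB, which encodes an assembly factor. Dhc16F, Zmynd10 and fd3F were not analysed here, because their identifiers could not be matched to a row.

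Axonemal dyneins are the motors that slide the outer microtubule doublets of a motile cilium or flagellum past each other. Their heavy chains carry the ATPase and are built into outer or inner dynein arms, which are put together in the cytoplasm by dedicated assembly factors before they enter the cilium. In the fly, motile-type cilia are known from chordotonal neurons and from sperm. The antenna holds a large chordotonal organ, Johnston's organ of the second segment, which detects sound, wind and gravity, and its cilia bear the TRP channels Nan, Iav and NompC. The olfactory neurons of the third segment have sensory cilia without dynein arms. Amos is the proneural factor of the olfactory sensilla that carry odorant receptors (the Or subsystem), whereas chordotonal organs and the coeloconic sensilla with ionotropic receptors (the Ir subsystem) depend on the proneural factor Atonal.

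The 12 libraries fell into 4 groups of 3 samples: adult antennae of amos mutants (allele amos3), adult antennae of wild-type controls (w1118), antennal discs of amos mutant larvae in the third instar and antennal discs of control larvae. Males and females raised at 22 °C were used, adult antennae were taken 0 to 4 h after eclosion with about 300 antennae per sample, and each disc sample pooled 50 discs cut away from the eye disc. The labels do not tie samples to separate crosses or cultures, so p-values measure the spread between these samples. Adult antennae were shaken off through a sieve, and the labels do not say whether the second segment came off with them.

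Gene-assigned reads numbered 36396746 to 50252338 in amos adult libraries, against 25150198 to 25721392 in control adult libraries, and 39247300 to 43984887 in amos disc libraries, against 26796503 to 27661261 in control disc libraries. A count of 3 reads stood for 0.0597 to 0.119 reads per 1000000 reads counted on genes (CPM), which is the lower limit of these libraries for counting error only. The targeted gene amos had 0 reads in amos adults against 1 to 2 in control adults, and 0 to 3 in amos discs against 0 to 2 in control discs, so it could not check the genotypes. Orco, the co-receptor of the Or subsystem, was at 57.5 to 115 CPM in amos adults against 2769 to 3104 CPM in control adults.

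The label of the gene group was set against the channel genes that define chordotonal cilia. In adult antennae nan was near the floor. The TRPV subunit gene nan had 5 to 56 reads in amos adults and 4 reads in each control adult library, and its partner iav had 37 to 125 reads against 19 to 41. The mechanotransduction channel gene nompC was at 13.1 CPM in amos adults and 4.85 CPM in control adults. Genes made in mature sperm or testis had at most 3 reads in every amos adult library and in all but 1 gene of the control adults, out of 5 genes with a row. In amos adults the reads of iav were about as many as those of tilB (39 to 120). In control adults they were fewer, against 52 to 69 for tilB. Reads and CPM are not scaled for gene length. Scaled for exon length, tilB over iav was 2.48 to 2.92 in amos adults and 4.20 to 9.12 in control adults. In mean CPM, without that scaling, nompC was above each of the 5 matched genes of the group in amos adults. In control adults nompC was below Dhc93AB (35.1 CPM) and Dhc36C (14.2 CPM).

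The level of each gene was compared with the others as reads per 1000 bases of exon per 1000000 reads (FPKM). Dhc93AB, a heavy chain of the outer arm, was the most abundant of the 5 in control adults, at 2.50 ± 0.257 FPKM (SD, n = 3). It was followed there by tilB, the fly counterpart of LRRC6, at 1.81 ± 0.247 FPKM, and by Dhc36C, an inner arm heavy chain, at 1.16 ± 0.101 FPKM. These 3 neighbours did not overlap in control adults.

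Dhc62B, another inner arm heavy chain, stood far lower, at 0.0812 ± 0.0341 FPKM in control adults. Dhc98D, a further axonemal heavy chain, was at 0.00655 ± 0.00135 FPKM there, from 2 to 3 reads per library. In amos adults tilB came first, at 1.37 ± 0.541 FPKM, followed by Dhc93AB at 0.702 ± 0.279 FPKM and Dhc36C at 0.546 ± 0.181 FPKM. Across libraries each of these 3 overlapped its neighbour, but within every amos adult library they stood in this order. Dhc62B was at 0.0868 ± 0.0151 FPKM and Dhc98D at 0.0065 ± 0.00444 FPKM in amos adults.

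The order differed in the discs. In amos discs Dhc93AB (0.191 ± 0.0137 FPKM) and Dhc62B (0.179 ± 0.0139 FPKM) overlapped at the top, and tilB (0.0712 ± 0.0394 FPKM) and Dhc36C (0.0414 ± 0.0250 FPKM) overlapped below them. Control discs had Dhc93AB at 0.307 ± 0.0650 FPKM, overlapping Dhc62B at 0.229 ± 0.0552 FPKM, with Dhc36C at 0.134 ± 0.0404 FPKM and tilB at 0.109 ± 0.0737 FPKM overlapping each other. Within each control disc library, however, Dhc93AB was above Dhc62B. Dhc98D was the lowest in both amos and control discs.

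**Figure D1:**
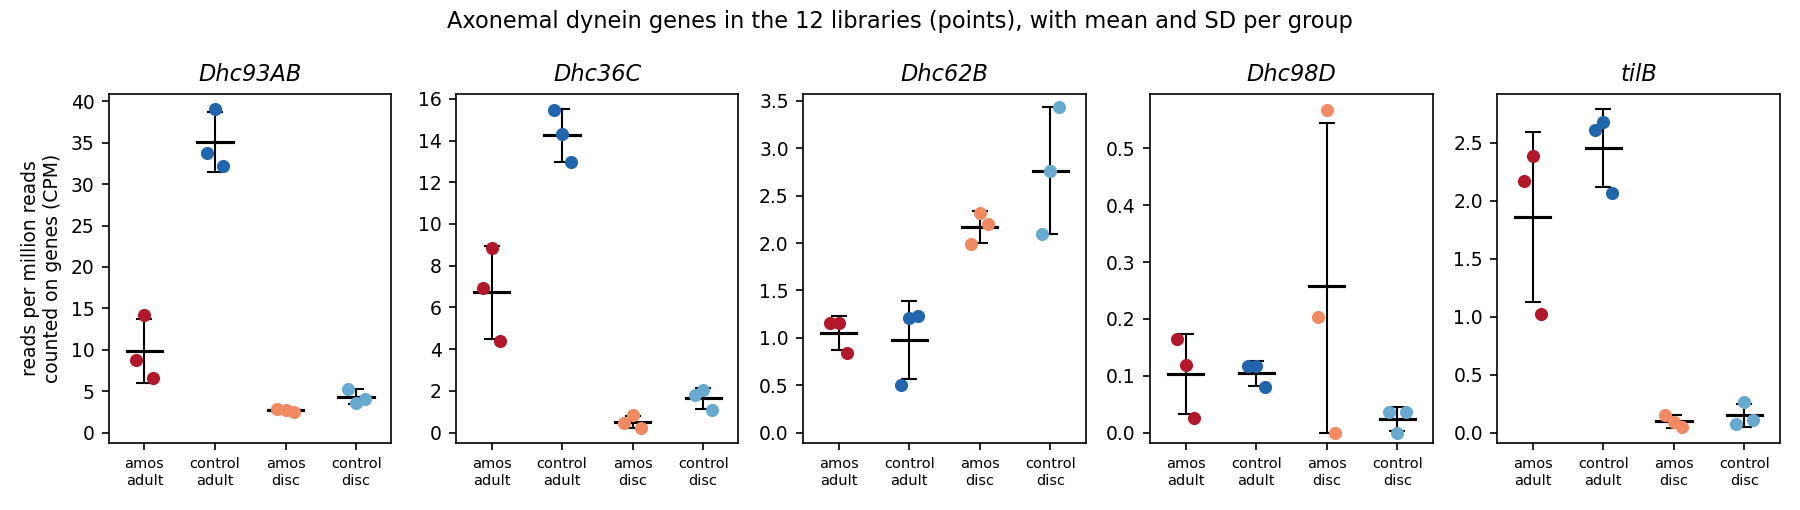
Reads per 1000000 reads counted on genes (CPM, vertical axis, a separate linear scale for each gene) of 5 axonemal dynein genes in the 3 libraries of each group (points), with the mean (horizontal line) and SD (error bars, cut at 0). Dhc93AB and Dhc36C in amos adult antennae lie below all control adult antennae, while Dhc62B and tilB overlap between the genotypes.

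The adult comparison asked whether motile cilium genes differed in antennae that lack the Or subsystem. Dhc93AB and Dhc36C fell in amos antennae, 3.60-fold and 2.15-fold, whereas tilB and Dhc62B did not pass the test. Of the 4 genes tested, 2 were lower at an adjusted p under 0.05 (edgeR's quasi-likelihood test, adjusted by Benjamini-Hochberg over all genes), and none was higher. Over all 9724 genes tested, 47.0% passed in either direction, 24.4% were lower and 22.7% higher, so that a single gene passing is common in this comparison.

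Dhc93AB, the outer arm heavy chain, had 8.71, 14.2 and 6.63 CPM (317, 713 and 253 reads) in amos antennae, against 33.8, 39.1 and 32.2 CPM (868, 1006 and 811 reads) in control antennae. The highest amos library was far below the lowest control library, a lack of overlap in this direction that 29.4% of all genes tested showed, and the amos libraries kept 18.9% to 40.5% of the control mean. The log2 fold change was -1.85 (SE 0.25, adjusted p = 0.00063 by edgeR), and it lay between -2.22 and -1.59 in 14 alternative settings, past the threshold in all of them. Dhc93AB was higher in amos replicate 2 than in the other two amos libraries, and without replicate 2 the log2 fold change was -2.22.

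Dhc36C, the inner arm heavy chain, had 6.92, 8.86 and 4.40 CPM (252, 445 and 168 reads) in amos antennae, against 15.5, 14.3 and 13.0 CPM (397, 368 and 326 reads) in control antennae. Its groups did not overlap either, and the amos libraries kept 30.9% to 62.2% of the control mean. The log2 fold change was -1.10 (SE 0.22, adjusted p = 0.00486 by edgeR), between -1.36 and -0.85 in the same alternatives and past the threshold in all 14.

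The assembly factor gene tilB had 2.17, 2.39 and 1.02 CPM (79, 120 and 39 reads) in amos antennae, against 2.61, 2.68 and 2.07 CPM (67, 69 and 52 reads) in control antennae. The groups overlapped, with 1 amos library low. Its log2 fold change was -0.42 (SE 0.32, adjusted p = 0.303 by edgeR), which did not pass. tilB shares 19 bases of exon with wap on the opposite strand, a gene without a matched row, so the reads of wap could not be given.

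Dhc62B had 1.15, 1.15 and 0.838 CPM (42, 58 and 32 reads) in amos antennae, against 0.506, 1.21 and 1.23 CPM (13, 31 and 31 reads) in control antennae. The lowest of the 6 libraries was a control, and the others lay together. The log2 fold change was 0.07 (SE 0.36, adjusted p = 0.883 by edgeR), and it was -0.24 without control replicate 5. Dhc62B shares 37 bases of exon with CG8001 on the opposite strand, which had 801 to 1372 reads in amos adults and 481 to 591 in control adults. These reads were not scaled, and the amos libraries were deeper. Whether the counting used strand is not given in the sources used here.

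Dhc98D had 6, 6 and 1 reads in amos antennae, against 3, 3 and 2 reads in control antennae. It did not pass the filter on low counts and was not tested, and no difference was detectable at this depth.

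In bulk RNA, fewer cells of a type and less RNA per cell cannot be told apart, and the fall of Dhc93AB and Dhc36C was not assigned to either. Other cell type markers moved with the genotype. All 4 neuron markers fell (elav by 0.99 on the log2 scale), brp no longer passing with scaling on ribosomal protein genes or without control replicate 6 or 7, with summed levels of 740 to 914 CPM in amos antennae against 1444 to 1521 CPM in control antennae. All 8 Or subsystem markers fell, with summed levels of 114 to 310 CPM against 23071 to 23757 CPM, and 5 of 6 Ir subsystem markers rose, with summed levels of 1650 to 1864 CPM against 834 to 897 CPM.

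Among the amos antennae, replicate 2 was the highest for Dhc93AB, Dhc36C and tilB and also for the summed Or subsystem markers (310 CPM, against 161 and 114 CPM in the other two). Replicate 3 was the lowest for these 3 dynein genes and for the Or markers. The muscle markers ran the other way, at 100 CPM in replicate 2 and 201 and 224 CPM in replicates 1 and 3, against 4.40 to 93.0 CPM in control antennae, and 2 of 4 (Act57B and up) rose. Act57B no longer passed with DESeq2, and neither gene passed without control replicate 7. Their part in the dynein values was not tested.

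Within a library, ratios of these genes do not depend on the scaling between libraries. The 6 ratios given were chosen after the values had been seen. Dhc93AB over Dhc36C was 1.11 to 1.41 in FPKM in amos antennae and 1.92 to 2.40 in control antennae, a difference of -0.76 on the log2 scale. Dhc93AB over tilB was 0.389 to 0.629 in amos antennae and 1.26 to 1.51 in control antennae, a difference of -1.42. Dhc36C over tilB was 0.351 to 0.475 in amos antennae and 0.588 to 0.691 in control antennae, a difference of -0.65.

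Against the channel gene iav the 3 dynein genes were lower in every amos library than in every control library. Dhc93AB over iav was 1.14 to 1.71 in amos antennae and 6.15 to 11.5 in control antennae, a difference of -2.44 on the log2 scale. The differences were -1.68 for Dhc36C over iav and -1.03 for tilB over iav. None of the 6 ratios overlapped between the genotypes. Each gave p = 0.1 in a two-sided exact permutation test (0.1 after adjustment over the 6), the smallest p that 3 against 3 samples allow. The ratios share genes and are not independent of each other. Among single genes tested, 29.4% had amos libraries all below the controls, and no such share was computed for ratios. The ratios over iav rest on its few reads in control adults. Neither tilB nor iav passed the test on its own.

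**Figure D2:**
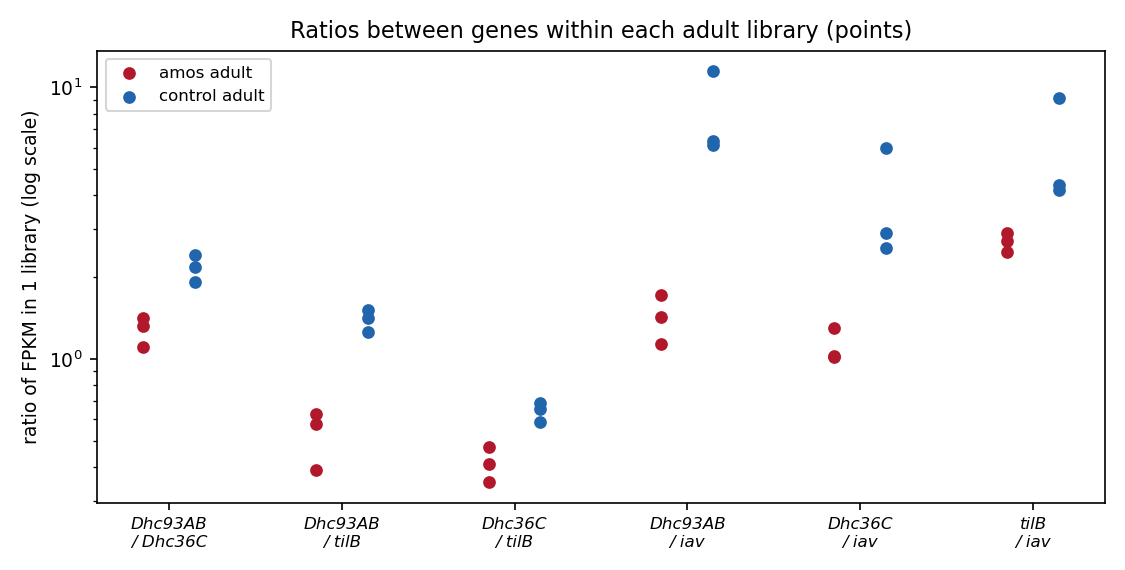
Ratio of the FPKM of a gene to that of another within each adult library (points, log scale), for 3 amos (red) and 3 control (blue) antennal libraries. In each of the 6 ratios the amos libraries lie below the control libraries, with the widest gap for Dhc93AB over iav.

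Other genes of the dynein arms were read for comparison, from lists written with the results of these data known. Neither of the 2 other axonemal heavy chain genes tested changed: CG3339 had a log2 fold change of -0.26 and Dnah3 of 0.55. Among 4 tested subunits of the arms, 2 fell and 1 rose. CG9313, an intermediate chain gene of the outer arm, fell to 60.3 CPM in amos antennae, against 93.3 CPM in control antennae (log2 fold change -0.65, adjusted p = 0.00282 by edgeR). Dic61B fell 2.30-fold, on 9 to 18 reads per amos library against 14 to 22 per control library, a call lost with DESeq2 (adjusted p = 0.057) and with scaling on ribosomal protein genes (adjusted p = 0.052). It was also lost without control replicate 5 or 6 or amos replicate 2 or 3 (adjusted p = 0.0711 to 0.111 by edgeR).

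Dnai2, another intermediate chain gene, rose to 88 to 126 reads in amos antennae, against 4 to 17 reads in control antennae (log2 fold change 2.43, adjusted p = 0.00189 by edgeR). Among 5 other assembly factor genes tested, dtr rose (1.68, adjusted p = 0.000642) and Nop17l fell (-0.76, adjusted p = 0.000248), both in edgeR's test. The listed arm subunit and assembly factor genes thus did not move in one direction in amos antennae, while no axonemal heavy chain gene tested was called higher.

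Genes for the cytoplasmic motors and for cilium building were counted in the same way. Of 6 cytoplasmic dynein genes, btv, the heavy chain of retrograde intraflagellar transport, fell (-0.79) and Dhc64C, the main cytoplasmic heavy chain, was at 0.02. The light chain gene robl rose (0.40, adjusted p = 0.0486 by edgeR), a call lost in 5 of 6 fits that left out an adult library (adjusted p = 0.064 to 0.144). Among 7 intraflagellar transport genes tested, 5 fell, of which Oseg2 fell by 0.90 on the log2 scale and nompB, the gene of an anterograde complex subunit, by 0.28, but with scaling on ribosomal protein genes only 1 of the 7 passed. The nompB call was also lost without control replicate 5, 6 or 7 (adjusted p = 0.0625 to 0.0877 by edgeR).

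Among 5 channel and cilium regulator genes tested, nompC rose (1.40, adjusted p = 0.000648 by edgeR) and dila (-1.51), ktub (-0.58) and Rfx (-0.56) fell. Rfx, a ciliogenesis factor, and ktub, a tubby-like protein gene, lost the call with scaling on ribosomal protein genes. The channel gene iav was at 0.56 (adjusted p = 0.291). Of the chordotonal support cell markers, nompA was at 0.11 and eys fell by 0.41, also lost with that scaling, under which nompA passed as higher. Neither of the 2 channel genes tested, nompC and iav, was lower in amos antennae, where Dhc93AB and Dhc36C fell.

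**Figure D3:**
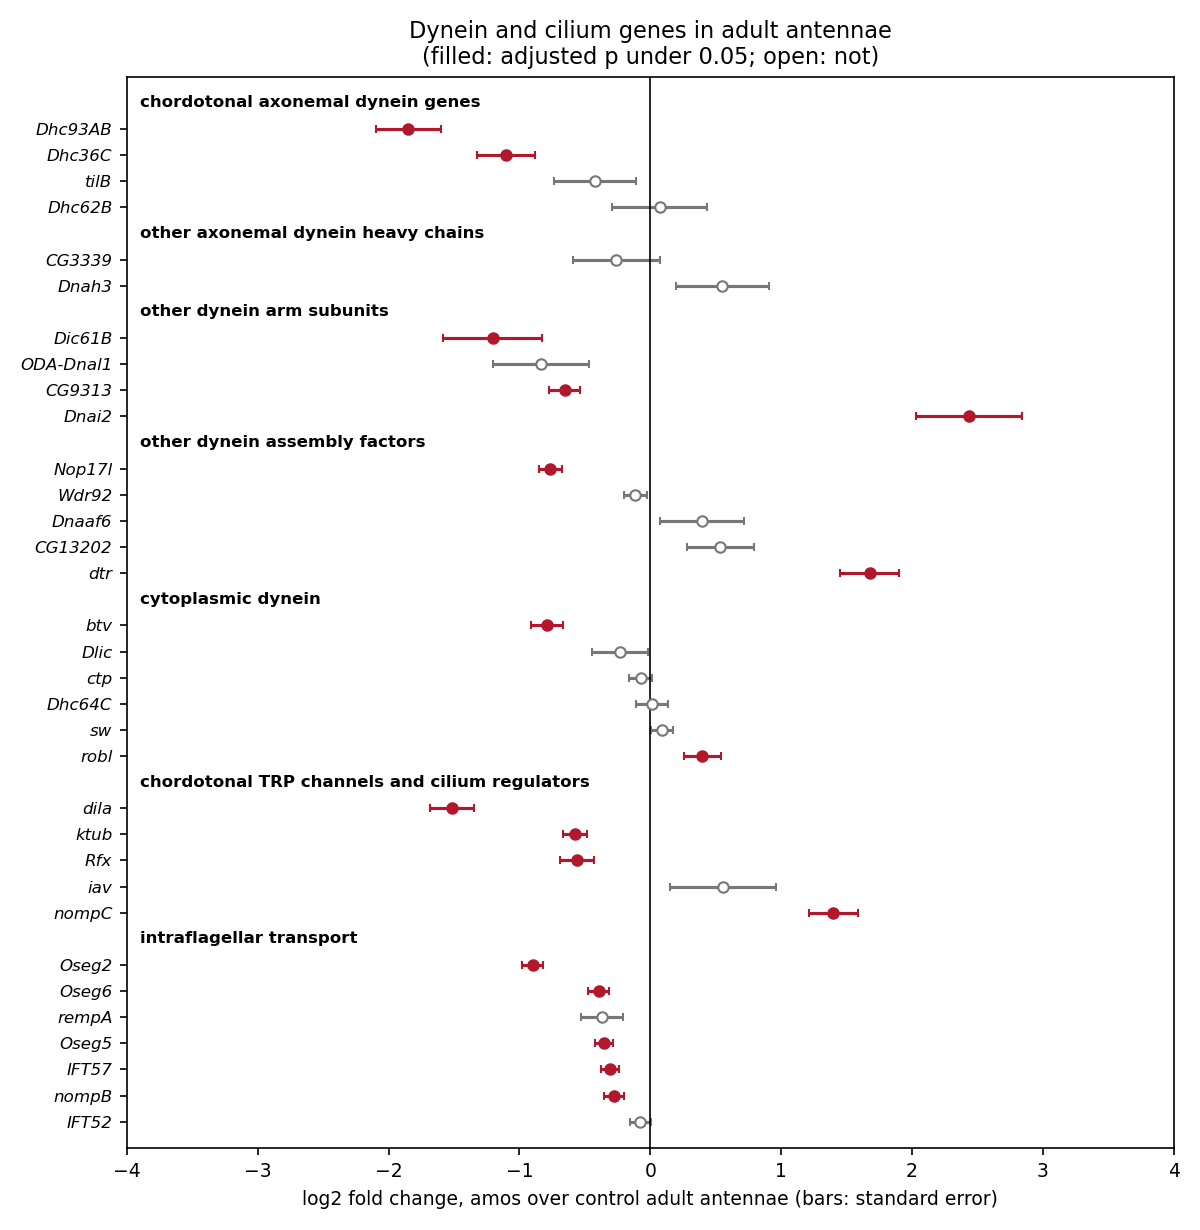
Log2 fold change, amos over control adult antennae (horizontal axis), of each tested dynein and cilium gene with its standard error (bars), grouped by role; filled points pass an adjusted p of 0.05 in edgeR's test over 9724 genes. Dhc93AB (-1.85) is lowest, and Dnai2 (2.43), dtr (1.68) and nompC (1.40) lie on the other side of 0.

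The discs were compared to see whether the genes differed before the antenna forms. None of the 3 genes tested passed by edgeR's quasi-likelihood test, while 2 of them, Dhc93AB and Dhc36C, had an unadjusted p under 0.05 (as did 32.8% of all genes tested) and 1, Dhc36C, passed with DESeq2 (as did 17.2% of the 12228 genes tested by that tool, 2099 against 1176 in the edgeR fit). Over all 8909 genes tested, 13.2% passed, 6.63% lower and 6.57% higher.

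Dhc93AB had 2.83, 2.73 and 2.46 CPM (111, 120 and 106 reads) in amos discs, against 5.31, 3.55 and 4.05 CPM (147, 95 and 111 reads) in control discs. All amos discs were below all control discs, as were those of 22.0% of all genes tested. The log2 fold change was -0.67 (SE 0.24, adjusted p = 0.111 by edgeR).

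Dhc36C had 0.459, 0.841 and 0.232 CPM (18, 37 and 10 reads) in amos discs, against 1.81, 2.05 and 1.10 CPM (50, 55 and 30 reads) in control discs. These did not overlap either, with the amos discs lower. The log2 fold change was -1.67 (SE 0.54, adjusted p = 0.0871 by edgeR), and the adjusted p was 0.0355 with DESeq2 and 0.0200 in one edgeR fit over all 12 samples.

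Dhc62B had 1.99, 2.32 and 2.20 CPM (78, 102 and 95 reads) in amos discs, against 2.10, 2.76 and 3.43 CPM (58, 74 and 94 reads) in control discs. The groups overlapped, and the log2 fold change was -0.33 (SE 0.28, adjusted p = 0.444 by edgeR). The opposite-strand neighbour CG8001 had 2380 to 2729 reads in amos discs and 1521 to 1932 reads in control discs, not scaled for the greater depth of the amos libraries.

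tilB had 6, 4 and 2 reads in amos discs and 2, 7 and 3 reads in control discs. Dhc98D had 8, 25 and 0 reads in amos discs and 1, 0 and 1 reads in control discs, so its reads came from amos replicates 1 and 2. Both were left out by the filter on low counts. Of the other cell type markers in discs, all 4 Or subsystem markers tested fell, with summed levels over 8 genes of 0.0232 to 0.136 CPM in amos discs against 14.0 to 17.1 CPM in control discs. In control discs these 4 genes stood at a like, very small share of their control adult level. It was 0.0664% for Orco, 0.0786% for lush, 0.0675% for Obp83a and 0.0660% for Obp83b. Whether these reads came from disc cells was not tested. Of 5 eye markers tested, ey and toy fell, with summed levels over 6 genes of 122 to 161 CPM in amos discs against 242 to 323 CPM in control discs. None of the 4 muscle markers passed by edgeR (4 had an unadjusted p under 0.05, and 1 passed with DESeq2), with summed levels of 50.3 to 65.1 CPM in amos discs against 93.7 to 802 CPM in control discs, the highest in control replicate 5. Their part in the dynein values was not tested.

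The stages were compared within each genotype. In both, Dhc93AB, Dhc36C and tilB were higher in adult antennae than in larval discs, while Dhc62B was lower. All 4 genes tested passed in each genotype, where 85.6% of 9985 genes passed in amos (43.8% higher, 41.8% lower) and 86.6% of 9770 in control (43.2% higher, 43.4% lower), so a pass was the usual outcome here.

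tilB had the widest difference, 1.02 to 2.39 CPM in amos adults against 0.0464 to 0.153 CPM in amos discs (log2 fold change 4.56, SE 0.56, adjusted p = 0.000138 by edgeR). In control animals tilB was at 2.07 to 2.68 CPM in adults against 0.0723 to 0.261 CPM in discs (4.28, SE 0.45, adjusted p = 0.000134 by edgeR). Each disc value rested on 2 to 7 reads.

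Dhc36C was higher in adults by 4.04 in amos (SE 0.50, adjusted p = 0.000145 by edgeR) and by 3.37 in control (SE 0.26, adjusted p = 2.57e-05) on the log2 scale. Dhc93AB was higher by 2.21 in amos (SE 0.30, adjusted p = 0.000238 by edgeR) and by 3.29 in control (SE 0.18, adjusted p = 5.04e-06). The discs held 27.1% of the adult level of Dhc93AB in amos and 12.3% in control, 7.59% and 11.6% of that of Dhc36C, and 5.20% and 6.02% of that of tilB. By the same measure, Orco in discs was at 0.0351% of its adult level in amos and 0.0664% in control.

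Dhc62B ran the other way, with disc levels at 207% of the adult level in amos and 282% in control. Its log2 fold change, adult over disc, was -0.72 in amos (SE 0.29, adjusted p = 0.0486 by edgeR), which 3 of 15 alternatives kept past the threshold in the same direction, and -1.22 in control (SE 0.40, adjusted p = 0.0257 by edgeR), which 11 of 14 kept. With scaling on ribosomal protein genes, which raised the median of all genes to 1.73 in amos and 1.43 in control, the sign of Dhc62B turned, to 0.95 in amos, which passed as higher in adults (adjusted p = 0.0131 by edgeR), and to 0.23 in control, which did not pass. Relative to those medians Dhc62B remained below the typical gene.

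**Figure D4:**
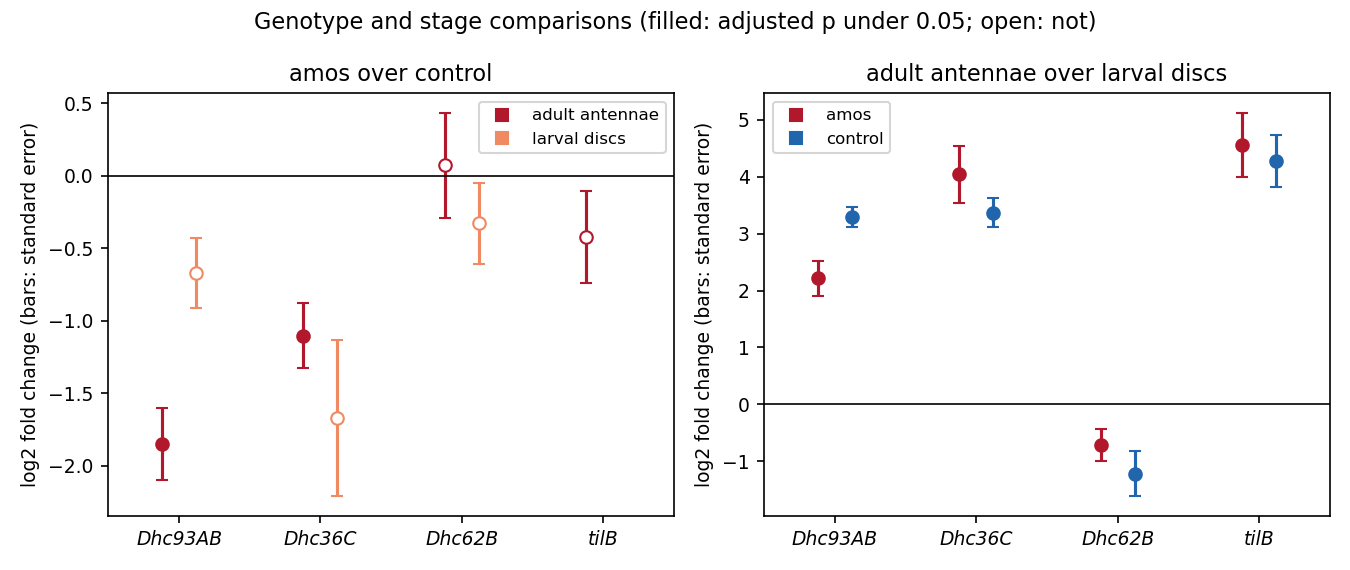
Log2 fold changes with standard errors (bars) of 4 axonemal dynein genes, amos over control at each stage (left, adult antennae left of discs) and adult antennae over larval discs in each genotype (right, amos left of control). tilB has no disc value on the left because it was not tested there, and Dhc62B is the only gene below 0 on the right; filled points pass an adjusted p of 0.05.

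The genotype effect was then compared between the stages in one model over all 12 samples. Dhc93AB was lowered more in adult antennae than in discs by 1.11 on the log2 scale (difference -1.11, SE 0.35, adjusted p = 0.0435 by edgeR), beside effects of -1.85 in adults and -0.67 in discs in the separate fits. It was the only one of 4 genes tested to pass, where 22.3% of 10319 genes passed, 8.06% with a lower and 14.2% with a higher difference. The call was kept in 6 of 20 alternatives, although the difference stayed between -1.47 and -0.83 in all of them.

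The same difference was 0.64 for Dhc36C (SE 0.55, adjusted p = 0.443 by edgeR), 0.47 for Dhc62B (SE 0.48, adjusted p = 0.514) and 0.24 for tilB (SE 0.70, adjusted p = 0.858). These errors are close to the difference for Dhc36C and Dhc62B and far above it for tilB, so no stage difference in the genotype effect was detectable for these genes.

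The profiles of the 4 genes over the 12 libraries were set against each other as log2(CPM + 1) less the mean, with the CPM scaled by TMM for this measure. The added 1 narrows the range of genes at low CPM, such as tilB. tilB lay nearest to the mean of the other three, at a root mean square difference of 0.291, then Dhc93AB at 0.784 and Dhc36C at 0.809, and Dhc62B was farthest at 1.48. Among 10315 other genes, those nearest to the mean profile of the 4 were tapas (0.0975), Pur-alpha (0.150), Ets98B (0.163), Cf2 (0.169), CG2278 (0.171), Asator (0.174), lncRNA:CR43700 (0.180) and bbc (0.183). tapas, for example, was at 123 CPM in amos adults, 212 CPM in control adults, 62.9 CPM in amos discs and 75.1 CPM in control discs. The mean profile joins Dhc62B with 3 genes of opposite stage pattern.

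The genes lie apart in the genome (BDGP6.54, Ensembl release 115). Dhc93AB is on 3R from 21024580 to 21042499 on the minus strand, Dhc98D on 3R from 28486953 to 28519398 on the plus strand, Dhc62B on 3L from 1759172 to 1771758 on the minus strand, Dhc36C on 2L from 17501401 to 17525515 on the plus strand and tilB on X from 22449737 to 22451463 on the plus strand. The union of exons is 14010 bases for Dhc93AB and 12325 for Dhc36C but 1358 for tilB. When each library's trend with gene length was removed, the median over all genes of adult over disc moved to -0.82 in amos and -0.71 in control, while Dhc93AB, Dhc36C and tilB stayed higher in adults.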

How the data were processed

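The authors made stranded mRNA libraries (TruSeq), trimmed and aligned the reads with TopHat2 and counted them per gene with HTSeq, and deposited raw counts per sample without normalization. The submitters' processing notes name cutadapt 1.2.1, TopHat2 2.0.9, HTSeq 0.5.4p3 and BDGP5, whereas the paper's methods name other versions, Skewer and release r6 of the genome; the strand setting is not given in the sources used here. Reads on no gene (2.94% to 7.84% of uniquely aligned reads) and ambiguous reads (0.968% to 1.12%) were left out.

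Counts of the 15682 genes were tested with edgeR 4.0.16 in R 4.3.3 (quasi-likelihood, TMM, filterByExpr, Benjamini-Hochberg at 0.05 over all genes tested), in a fit per comparison and an interaction fit over 12 samples. Python 3.11.15 and scipy 1.17.1 gave the permutation tests. Gene names matched 15002 identifiers. CPM used all reads counted on genes, with TMM scaling only where profiles were set against each other, and FPKM the exon union. SE is the log2 fold change over the root of F. The test was checked on simulated data. Replicates were not identical. Adult groups share no replicate number.

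Alternatives were DESeq2 1.42.0, total count scaling, scaling on 87 ribosomal protein genes, no filter, one fit over 12 samples, a minimum of 10 counts in each sample, thinned counts, the length trend removed (loess, span 0.5), the replicate block and each sample left out; the ratios within a library were added after seeing the data. Members and lists were chosen with earlier results of these data known. Named genes were the 8 members and, from each list, the defining gene and up to 4 with the largest change in adults. No sequence is shown, as none was used here.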

Additional observations from a re-analysis of the deposited data

Results flagged for a closer look

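The genotype effect on Dhc93AB differed between the stages: it was lower in adult antennae than in discs by 1.11 on the log2 scale (difference -1.11), which the interaction term of edgeR put at an adjusted p of 0.0435. The amos libraries were below all control libraries at both stages, as were those of 29.4% of genes tested in adults and 22.0% in discs. Over all genes tested, 22.3% passed the interaction, 8.06% with a lower difference. The Dhc93AB difference was not past the threshold in 14 of 20 alternatives, whose adjusted p by the test of each alternative ran up to 0.158.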

How the results depend on the processing

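In adults the same 2 members were called under all 14 alternatives. In discs, DESeq2 and one fit over all 12 samples each called 1 member in place of 0, with 2099 and 2060 of all genes against 1176, and leaving out a replicate called 201 to 1376. For amos adults over discs, at least 10 counts in every sample called 2 members in place of 4 and leaving out a replicate called 3; for control 3 to 4. In the interaction, 14 of 20 alternatives called 0 members in place of 1. These were ribosomal protein scaling, no filter, the length trend removed, the replicate block and most fits with a replicate left out.

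Same-numbered discs had deviations correlated at -0.199 and -0.146, and same-numbered amos adults and discs at 0.111, 0.0192 and 0.0342, so the numbers were not taken to pair samples. With the replicate block the interaction called 1045 genes in place of 2302, Dhc93AB was at -1.22, Dhc36C at -0.0023 and tilB at -0.26, and Dhc62B between amos stages was at -0.72 (adjusted p = 0.0973 by edgeR). Control stages share 1 number, and no paired fit was made there.

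Other values that changed sign were Dhc62B in adults without amos replicate 2 (-0.0045) or control replicate 5 (-0.24; range -0.24 to 0.28 with a replicate left out), Dhc62B between stages with ribosomal protein scaling (0.95 in amos, past the threshold, and 0.23 in control), and the interaction of tilB without control disc replicate 2 (-0.51) or amos disc replicate 3 (-0.17; range -0.51 to 0.60). The cause was not tested.

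Ribosomal protein scaling split the calls into 3568 higher and 1268 lower against 2203 and 2370 in adults, 216 and 697 against 585 and 591 in discs, 7579 and 1215 against 4375 and 4171 between amos stages, 6823 and 1582 against 4216 and 4242 between control stages, and 2302 and 329 against 1470 and 832 in the interaction. One fit over 12 samples gave 2391 and 1583 in adults. Removing the length trend gave 3208 and 5446 between amos stages, 3130 and 5231 between control stages, and 1107 and 1078 in the interaction, where at least 10 counts in every sample gave 1136 and 985. tilB in discs and Dhc98D in all groups were limited by depth.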
